A study of Rattus norvegicus with 8 samples.

Results

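The CpG dyads described here are the most deeply covered of the autosomal genome in 8 reduced representation bisulfite sequencing (RRBS) libraries. A CpG dyad is a CpG with its partner on the opposite strand, and the calls of its listed strands were added. Dyads of chromosomes 1 to 20 with at least 10 calls in all 8 libraries numbered 761556. A dyad was taken as deep where its coverage was in the top 0.5% of these in at least 6 of the 8 libraries, which left 2818 deep dyads (0.370%). They were selected on coverage alone, so coverage is described without a test, while methylation level, tissue difference and sequence letters did not enter the choice.

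The rats were male Sprague Dawley animals, and 4 libraries were made from hippocampus, 4 from hypothalamus. Every animal had been fed DHA (docosahexaenoic acid, which belongs to the omega-3 fatty acids) for 6 weeks, starting when it was 2 months old. Tissue was therefore the only contrast, and a chow-fed group of the study was not analysed here. The labels do not say whether each library is from 1 animal or from pooled animals, nor whether libraries with the same number come from the same animal. The p-values therefore refer only to these libraries. In the test of single dyads, the spread between libraries was also moderated by that of other dyads. Both tissues are mixtures of cell types, and a difference in level can come with another mixture. The tissue labels were not checked against marker genes, since expression was not analysed here. Values of a tissue are listed in the order of its libraries 1 to 4.

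RRBS cuts DNA with MspI, an enzyme whose site contains a CpG, and sequences the fragments of a chosen size after bisulfite has converted unmethylated cytosine. Each fragment is thus expected to be read at a depth set by how efficiently it is made, amplified and placed on the genome. A sequence that is present in more copies in the animal than in the reference assembly collects the reads of all its copies at 1 place, and near-identical copies that are in the assembly can exchange reads. In mammals, interspersed repeats and satellite arrays are mostly methylated in somatic tissue, while ribosomal DNA arrays hold methylated and unmethylated copies side by side, and CpG islands at promoters are mostly unmethylated. Levels at such places can therefore be averages over copies.

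The letters below show what kinds of sequence the deep dyads lie in. They were rebuilt from the nucleotide, context and dinucleotide entries of the deposited cytosines, so letters next to no listed cytosine are unknown and written n, and CpG dinucleotides are in capitals. Coordinates are those of the deposited files (build rn5, per the submitters' processing notes), and each line is the plus strand, 5′ to 3′. The first 3 are the letters that recurred at most deep dyads, each with 25 bases on either side of the dyad.
chr9:86027050-86027101: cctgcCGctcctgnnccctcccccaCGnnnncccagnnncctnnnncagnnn
chr4:12179964-12180015: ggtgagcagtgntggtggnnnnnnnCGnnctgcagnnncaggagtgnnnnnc
chr17:40021334-40021385: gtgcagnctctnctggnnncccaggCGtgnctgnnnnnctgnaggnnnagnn

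A cluster on chromosome 1 showed an array of short units instead. The stretch below holds ctctgctg 7 times, at spacings of 23 to 25 bases, with a CpG in nearly the same place of each unit. Windows of 171 bases around a deep dyad held this motif at least once on either strand in 0.816% of cases and those around other dyads in 0.850%. At least 3 copies were in the windows of 8 deep dyads, which are the members of this cluster from which the motif was taken, and of 6 other dyads.
chr1:32415255-32415425: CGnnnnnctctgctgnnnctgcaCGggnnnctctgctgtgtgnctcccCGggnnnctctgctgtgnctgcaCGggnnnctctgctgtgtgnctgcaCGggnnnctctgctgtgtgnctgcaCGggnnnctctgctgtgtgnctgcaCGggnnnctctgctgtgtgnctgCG

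The last 6 are stretches of clusters whose values are described further on. The first is from the cluster with the most calls, the next is the cluster at the coverage maximum, and the third is the cluster with all calls in favour of hippocampus. After it comes the stretch whose letters matched an Fc receptor promoter, and the last pair are on different chromosomes and nearly alike.
chr19:67048472-67048591: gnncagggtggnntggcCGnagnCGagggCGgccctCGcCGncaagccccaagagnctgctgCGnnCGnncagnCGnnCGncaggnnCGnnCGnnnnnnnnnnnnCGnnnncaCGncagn
chr14:46822747-46822848: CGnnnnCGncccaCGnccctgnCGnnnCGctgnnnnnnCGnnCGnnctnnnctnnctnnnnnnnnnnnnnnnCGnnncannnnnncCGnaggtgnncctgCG
chr1:13505331-13505430: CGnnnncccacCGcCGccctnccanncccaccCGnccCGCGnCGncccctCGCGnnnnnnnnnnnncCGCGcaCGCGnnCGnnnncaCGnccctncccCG
chr13:95678297-95678373: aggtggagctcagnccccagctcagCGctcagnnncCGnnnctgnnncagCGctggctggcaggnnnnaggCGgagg
chr5:95166442-95166543: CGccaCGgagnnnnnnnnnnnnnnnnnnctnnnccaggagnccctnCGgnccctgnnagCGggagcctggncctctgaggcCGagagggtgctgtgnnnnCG
chr19:5826886-5826985: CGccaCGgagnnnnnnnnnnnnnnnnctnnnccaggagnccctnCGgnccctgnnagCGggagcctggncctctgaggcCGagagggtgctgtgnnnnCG

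Deep dyads sat close together in short stretches. With members up to 500 bases apart joined, they formed 749 clusters, of which 165 were a lone dyad, 403 held 2 to 4 and 181 held 5 or more. The 181 larger clusters held 1527 deep dyads (54.2%), and the largest held 48. RRBS samples CpGs in tight groups anyway: joined the same way, 78.5% of all shared dyads were in groups of 5 or more. The spans of the 181 larger clusters held 1702 shared dyads, of which these 1527 (89.7%) were deep. Since the spans are drawn from deep dyad to deep dyad, this share is set in part by the rule and is a description only.

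Chromosomes did not contribute equally. Chromosome 2 held most deep dyads, 394 or 0.827% of its shared dyads, followed by chromosome 1 with 326 (0.392%) and chromosome 7 with 322 (0.679%). The shares on chromosomes 9 and 13 were 0.725% and 0.668%. The lowest share was on chromosome 10, with 71 deep dyads (0.120%).

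The limits that defined the top 0.5% were 256, 227, 248 and 279 calls for the hippocampus libraries and 227, 277, 83 and 126 calls for those of hypothalamus. Hypothalamus 3 and 4 were the shallowest libraries, with 178178404 and 259930295 listed calls against 467623585 to 625653602 in the others. The median deep dyad had 459, 389, 438 and 500 calls in hippocampus and 355, 498.5, 131 and 215 in hypothalamus, 5.95 to 7.02 times the median of all shared dyads of the same library. Of the 2818 deep dyads 1947 were past the limit in all 8 libraries, 399 in 7 and 472 in 6. A further 4539 dyads were past it in 1 to 5 libraries.

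**Figure D1:**
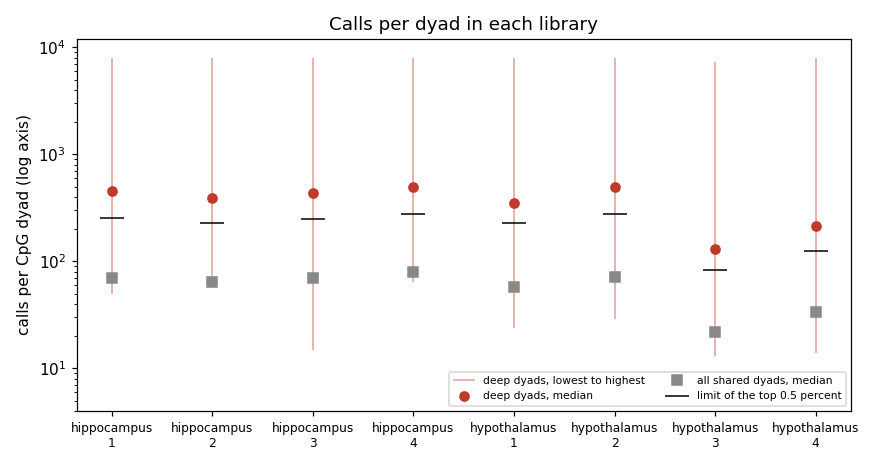
Calls per CpG dyad (log axis) in each of the 8 libraries. Red points are the medians of the 2818 deep dyads and red lines run from the lowest to the highest of them, grey squares are the medians of all 761556 shared dyads and black bars the limit of the top 0.5%. The deep medians lie 5.95 to 7.02 times above the grey squares in each library.

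Next to the limit, 2 dyads on each side are given with their values, as a description of these dyads only. Just inside it, the dyad chr5:14457086-14457087 had 60 calls (hypothalamus 3) to 319 calls (hippocampus 4) and levels of 87.6% to 93.5%, and chr7:19853068-19853069 had 113 to 360 calls and levels of 86.7% to 91.8%. Just outside it, chr2:187466182-187466183 had 50 to 370 calls and levels of 72% to 92.0%, and chr4:41949035-41949036 had 62 to 298 calls and levels of 89.5% to 96.6%.

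The highest members stopped at a common maximum. Between 20 and 37 deep dyads reached 7900 calls or more in each hippocampus library and in hypothalamus 1 and 2, 4 did so in hypothalamus 4 and none in hypothalamus 3. No other shared dyad of chromosomes 1 to 20 reached it in any library. The deposited calls per position end between 7970 and 8022 in every library, so the true depth of these dyads was not measured and their share of the calls is a lower value. Both strands were listed for 21.2% to 24.1% of deep dyads, against 11% to 17.6% of other dyads.

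Depth also differed between libraries at single clusters, beyond library size. In the 418 clusters of at least 3 deep dyads, calls per dyad divided by the library's median over all shared dyads differed between the highest and the lowest library by a median of 1.70 times, and by 4 times or more in 32 clusters. The cluster of 5 dyads at chr1:154948963-154949064, named after its values were seen, had 51.6, 851, 1242 and 1523 calls per dyad in hippocampus and 24.8, 1181, 435 and 590 in hypothalamus. The libraries numbered 1 of both tissues were therefore near the genome's ordinary depth there, at 0.737 and 0.428 times their median, and the other 6 were 13.3 to 19.8 times above theirs.

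A different pattern, also seen afterwards, was shared by hypothalamus 1 and 3. The 3 dyads at chr10:29781416-29781473 had 102.8, 102.8, 101.7 and 95.4 times the library median in hippocampus and 4.2, 79.7, 3.94 and 61.7 times in hypothalamus. Of the 472 dyads that were short of the limit in exactly 2 libraries, 192 were short in hypothalamus 1 and hypothalamus 3. Overall 12.6% of deep dyads were short of the limit in hypothalamus 1 and 16.6% in hypothalamus 3, against 0.639% to 4.86% in the other 6 libraries. The level at chr10:29781416-29781473 stayed between 82.3% and 89.2%.

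Deep dyads were on average more methylated than the rest, with fewer at the bottom of the scale. The mean of their levels was 63.4%, 62.4%, 64.2% and 64.0% in hippocampus and 64.0%, 63.7%, 62.5% and 64.3% in hypothalamus. The other shared dyads had means of 48.0% to 52%, so the deep dyads were 12.3 to 14.8 points higher in every library. By mean over the 8 libraries, 11.8% of deep dyads were below 5%, the range of unmethylated CpG islands, against 32.4% of the others. Between 80% and 95% there were 41.6% against 27.0%, while from 95% upward the deep dyads were fewer, at 8.98% against 11.5%.

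**Figure D2:**
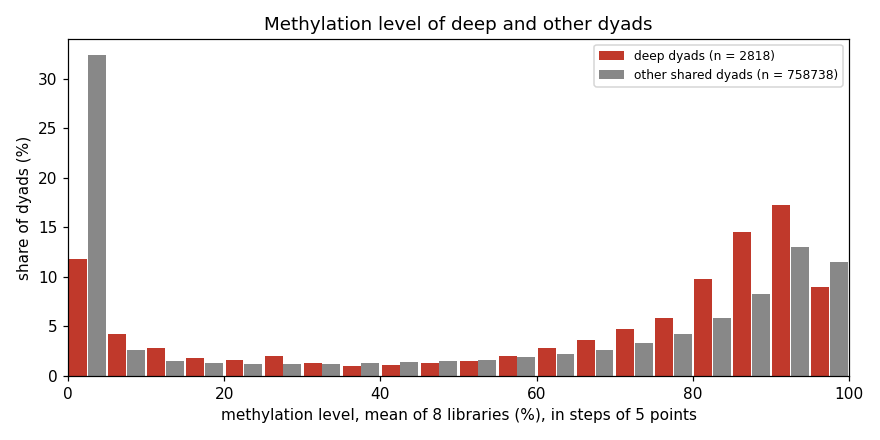
Share of dyads (%) by methylation level, the mean over 8 libraries in steps of 5 points, for the 2818 deep dyads (red) and the 758738 other shared dyads (grey). The lowest step holds 11.8% of deep and 32.4% of other dyads, and deep dyads are the larger share from 5% to 35% and from 55% to 95%.

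Between the tissues the mean level of deep dyads was nearly equal. It was 63.5% ± 0.818 (SD, n = 4 libraries) in hippocampus and 63.6% ± 0.792 in hypothalamus, a difference of 0.109 points that is smaller than the spread within either tissue. The other dyads had 49.1% ± 0.981 and 50.5% ± 1.08, a difference of 1.34 points. Weighted by calls, deep dyads went the other way, with 60.3% ± 0.798 in hippocampus and 58.4% ± 1.3 in hypothalamus. By library it was 60.0%, 59.4%, 61.3% and 60.5% in hippocampus and 59.4%, 59.2%, 56.5% and 58.3% in hypothalamus. The lowest were the shallow hypothalamus 3 and 4, where few or no deep dyads reached the depth maximum. The 3 clusters with most calls held 0.898% and 0.764% of all calls there, against 0.528% to 0.583% in the other libraries. Their part in this direction was not tested.

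The deep dyads held 3.68% to 4.23% of all calls at shared dyads while being 0.370% of their number. Of the calls that fell in deep dyads, the 5 clusters with most took 9.10%, 3.76%, 3.16%, 2.18% and 2.14%. Their weight raised every library's call-weighted CpG level, by 0.328 (hypothalamus 3) to 0.635 points (hypothalamus 2). The call-weighted level of all shared dyads was 47.0%, 46.6%, 47.2% and 48.2% in hippocampus and 47.9%, 44.5%, 48.9% and 49.6% in hypothalamus. Without the deep dyads it was 46.5%, 46.1%, 46.6% and 47.7% in hippocampus and 47.4%, 43.9%, 48.6% and 49.2% in hypothalamus.

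Leaving them out did not change what the libraries showed about tissue. The hypothalamus was 0.511 points higher with them (exact permutation test, two-sided, p = 0.714, n = 4 and 4) and 0.577 points higher without them (exact permutation test, p = 0.714, adjusted over both comparisons 0.714). The smallest p that the 70 assignments allow is 0.0286. Leaving out hypothalamus 4 turned both differences around, to -0.118 and -0.0738 points, and leaving out hypothalamus 2 raised them to 1.58 and 1.71 points. The low call-weighted level of hypothalamus 2 remained without the deep dyads: its mean of dyad levels was 5.05 points above its call-weighted level, and 5.63 points above it once they were left out. In the other libraries that gap was 1.01 to 2.77 points with them and 1.29 to 3.27 points without them.

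**Figure D3:**
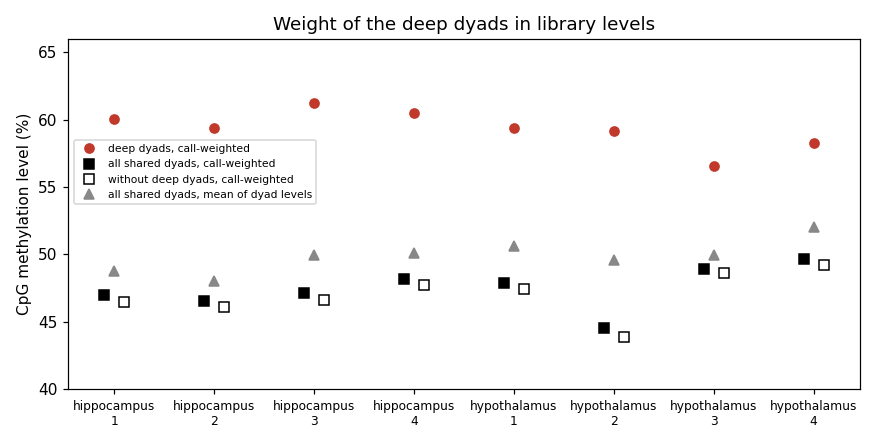
CpG methylation level (%, axis from 40 to 66) of each library: call-weighted over all shared dyads (filled squares), without the 2818 deep dyads (open squares) and over the deep dyads (red), and the mean of dyad levels over all shared dyads (triangles). Open squares lie 0.328 to 0.635 points under the filled ones, and hypothalamus 2 has the lowest squares with and without the deep dyads.

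Few deep dyads differed between hippocampus and hypothalamus. Of the 2818, 2232 had a mean level of 5% to 95% and were tested, while 333 were too low and 253 too high. Among the tested, 37 (1.66%) were called, with an adjusted p under 0.05 in the moderated quasi-binomial test and at least 10 points between the tissue means. Over all 433557 tested dyads of the genome the share was 9.84%. By direction, 28 were higher in hypothalamus and 9 in hippocampus, where all tested dyads gave 8.6% and 1.24%. Both counts moved with single libraries. The count higher in hypothalamus ran from 16 (without hypothalamus 2) to 39 (without hypothalamus 4). The count higher in hippocampus was 0 without hippocampus 3 or without hypothalamus 2, 1 without hippocampus 1 or without hypothalamus 3, 7 without hypothalamus 4, 15 without hippocampus 2, 44 without hippocampus 4 and 50 without hypothalamus 1. With 1 library left out, 0.714% to 3.85% of tested deep dyads were called in either direction, against 7.17% to 10.5% of all tested dyads. Direction was not counted over all tested dyads in these alternatives. Without the minimum of 10 points 132 deep dyads (5.91%) passed, against 10.7%, and hippocampus and hypothalamus libraries were fully apart at 163 (7.30%), against 14.4%. The quasi-binomial test weighs each library by its calls at the dyad, while differences in points are between unweighted means of libraries. These can differ in size and even in sign, so a p-value does not test the exact difference printed beside it.

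The number called depended on how the spread was modelled. With each dyad's own dispersion the quasi-binomial test called none, of deep dyads or of any dyads, although 236 of 2232 deep dyads and 70120 of all 433557 tested had an unadjusted p under 0.05. Limma on logit levels called 1 deep dyad (0.0448%), which was none of the 5 named below, against 4.35% of all tested dyads. Where any dyad was called, the share among deep dyads was below that among all tested dyads, in each alternative tried, including calls thinned to at most 100 per library (1.25% against 9.68%). Without hypothalamus 2 and hypothalamus 3, an alternative chosen after the values were seen, 8 deep dyads (0.362%) were called, against 5.92% of all tested dyads.

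Differences were small and so was the spread. The median difference of the tested deep dyads was 0.188 points, against 1.39 over all tested dyads, and 3.99% differed by 10 points or more, against 20.8% of other dyads. Their median SD within a tissue was 2.82 points, against 5.65. Counting error alone would give 1.94 points at the depth of the deep dyads and 5.47 at that of the others, so the libraries differed by 1.42 times the counting error at the median deep dyad and by 1.06 times at the median other dyad.

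**Figure D4:**
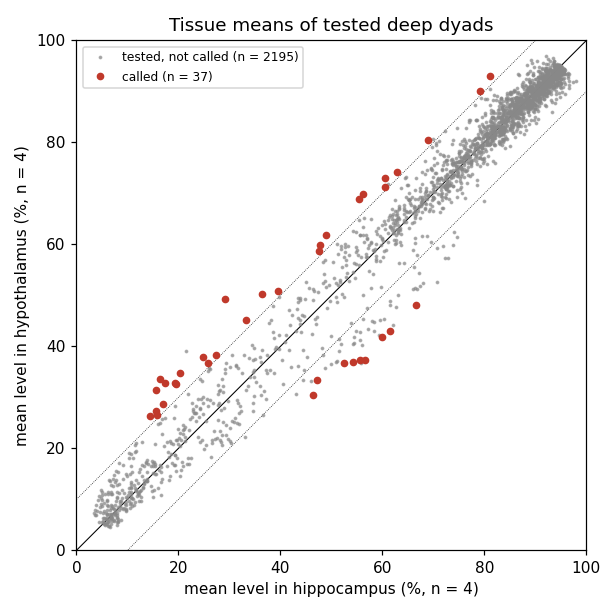
Mean methylation level (%) of the 2232 tested deep dyads in hippocampus and in hypothalamus (n = 4 libraries each). Dotted lines mark 10 points of difference and red points the 37 called dyads, 28 above and 9 below the diagonal.

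The called dyads were gathered in few places. They lay in 16 of the 749 clusters, and 25 of the 37 in only 4 of them. The other 12 were a lone call in their cluster, all higher in hypothalamus by 10.7 to 14 points, and the tissues did not overlap at 10 of these 12. Neither trait was particular to them. Of the 42648 dyads called over the genome, 37266 were higher in hypothalamus, and 35742 were without overlap. All 9 called dyads that were higher in hippocampus belonged to 1 cluster on chromosome 1. It spans 100 bases, and these dyads had nearly equal calls in each library, for example 519 to 526 in hippocampus 1. Neighbouring dyads can be covered by the same reads, so the 9 are not separate observations.

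The cluster with most calls, chr19:67048207-67048792, had 45 deep dyads and 7 called ones. Its mean level was 11.4%, 16.3%, 17.2% and 12.6% in hippocampus and 17.1%, 28.8%, 25.6% and 16% in hypothalamus. Hypothalamus 2 and 3 were above every hippocampus library, while hypothalamus 1 and 4 lay within the hippocampal range. The means were 14.4% ± 2.80 and 21.9% ± 6.27 (SD, n = 4), and the levels of its dyads ran from 3.17% to 53.1%. It took 2624 (hypothalamus 3) to 4363 calls per dyad (hippocampus 4).

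A pair of clusters on chromosome 13 gave 9 of the 28 dyads called higher in hypothalamus. The 20 dyads of chr13:95677901-95678490, 6 of them called, averaged 14.1%, 11.7%, 14.9% and 15.4% in hippocampus and 18.5%, 31.5%, 22.8% and 17.7% in hypothalamus. The 23 dyads of chr13:94075064-94075798, 3 of them called, averaged 17.4%, 15.7%, 18.3% and 18.2% in hippocampus and 20.9%, 29.1%, 23.7% and 21% in hypothalamus. In both clusters all 4 hypothalamus libraries were above all 4 hippocampus libraries and hypothalamus 2 was the highest. Of the dyads with at least 30 known letters, 1 of 10 in the first cluster and 3 of 12 in the second had the same letters at another shared dyad. Reads may be shared between such places, so the 2 clusters may not be separate observations, which was not tested. Close to them lay deep clusters near the bottom of the scale: chr13:94070977-94071112, chr13:95679614-95679945 and chr13:95680635-95681131 together ran from 1.01% to 5.81% over the 8 libraries. The deep cluster of 5 dyads nearest to the second of the pair, chr13:94073827-94073968, was highly methylated instead, at 70.5% to 76.7%.

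The 4 largest differences without overlap were in this pair. The dyad chr13:95677932-95677933 had 32.9%, 24.5%, 30% and 29.4% in hippocampus and 43.2%, 61.8%, 49.0% and 43.4% in hypothalamus, at 198 to 629 calls. Its difference was 20.2 points ± 4.70 (SE; adjusted p = 9.6e-05, quasi-binomial test with moderated dispersion), and every hypothalamus library was above every hippocampus library. At chr13:95677997-95677998 the levels were 17.9%, 11.3%, 19.0% and 17.6% against 26.3%, 47.3%, 36.6% and 24.3%, a difference of 17.2 points. At chr13:94075391-94075392 they were 16.6%, 13.4%, 18.9% and 13.5% against 23.9%, 42.4%, 38.9% and 20.2%, a difference of 15.8 points. The dyad chr13:95678489-95678490 differed by 14.4 points.

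At all 4 dyads hypothalamus 2 and 3 were the highest libraries. Without both of them the first was still called, at 14.1 points (adjusted p = 0.046, quasi-binomial test). The other 3 were no longer called, at 8.84, 6.48 and 7.25 points (adjusted p = 0.129, 0.194 and 0.131). The fifth, chr3:112840115-112840116, did not share this: it had 38.5%, 37.2%, 32.6% and 36.9% in hippocampus and 55.9%, 45.5%, 44.9% and 55% in hypothalamus, where libraries 1 and 4 were the highest. Its difference was 14 points (adjusted p = 0.00846, quasi-binomial test), and it lost its call without hypothalamus 1 (12.2 points, adjusted p = 0.0727) and with calls thinned to at most 100 (12.7 points, adjusted p = 0.0598). With limma on logit levels and with their own dispersion, none of these 5 dyads was called: adjusted p was 0.0744 and 0.103 for chr13:95677932 and 0.172 and 0.109 for chr3:112840115. No called dyad was higher in hippocampus without overlap.

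Part of the first chromosome 13 cluster matched the RefSeq promoter of Fcgr2a, a gene for a low-affinity receptor of the Fc part of immunoglobulin G that is carried by microglia and other myeloid cells. The windows of 3 dyads, at chr13:95678322-95678323, chr13:95678333-95678334 and chr13:95678347-95678348, had 39 to 42 known letters, all identical to it, and Fcgr2a is on chromosome 13 of the RefSeq assembly (GRCr8) as well. The middle dyad had 3.98%, 4.13%, 4.32% and 5.63% in hippocampus and 7.81%, 17.9%, 10.2% and 6.43% in hypothalamus, without overlap. Its difference of 6.08 points had an adjusted p of 0.000426 (quasi-binomial test) and missed the minimum of 10 points, as did those of its neighbours (3.61 and 5.41 points). At all 3 dyads hypothalamus 2 was the highest library, at 14.2%, 17.9% and 18.8%, so these differences rest in part on 1 library. Promoters of related Fc receptor genes can hold similar letters, and expression was not analysed here.

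The cluster with the hippocampal calls belonged to a short stretch of chromosome 1 whose clusters varied most between libraries. The 16 dyads of chr1:13505331-13505430, 9 of them called, averaged 67.3%, 46.8%, 72.7% and 41.6% in hippocampus and 66.9%, 28.8%, 29.6% and 37.1% in hypothalamus. The tissue means were 57.1% ± 15.2 and 40.6% ± 17.9 (SD, n = 4), and the ranges overlapped: hypothalamus 1 was as high as hippocampus 1, and hippocampus 4 was close to hypothalamus 4. The 9 called dyads had adjusted p-values of 0.0246 to 0.0468 in the quasi-binomial test, and none of them was without overlap. These p-values use the moderated dispersion. The largest of the differences, at chr1:13505404-13505405, was -19.1 points ± 11.2 (SE).

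Its neighbours had the same pattern of libraries but held none of the 37 called dyads. The 41 dyads of chr1:13503472-13504146 averaged 69.8%, 54.9%, 72.4% and 41.7% in hippocampus and 70.2%, 41.5%, 38.0% and 44.5% in hypothalamus. The 11 dyads of chr1:13500338-13500435 averaged 63.4%, 52.6%, 60.0% and 40.3% in hippocampus and 64.1%, 18.5%, 33.9% and 44.6% in hypothalamus. Another cluster of 7 dyads, chr1:13556019-13556119, split the libraries differently, with 12.3%, 10.1%, 30.9% and 30.8% in hippocampus and 15.4%, 9.91%, 35.0% and 27.7% in hypothalamus. There the libraries numbered 1 and 2 were low and those numbered 3 and 4 high in both tissues.

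**Figure D5:**
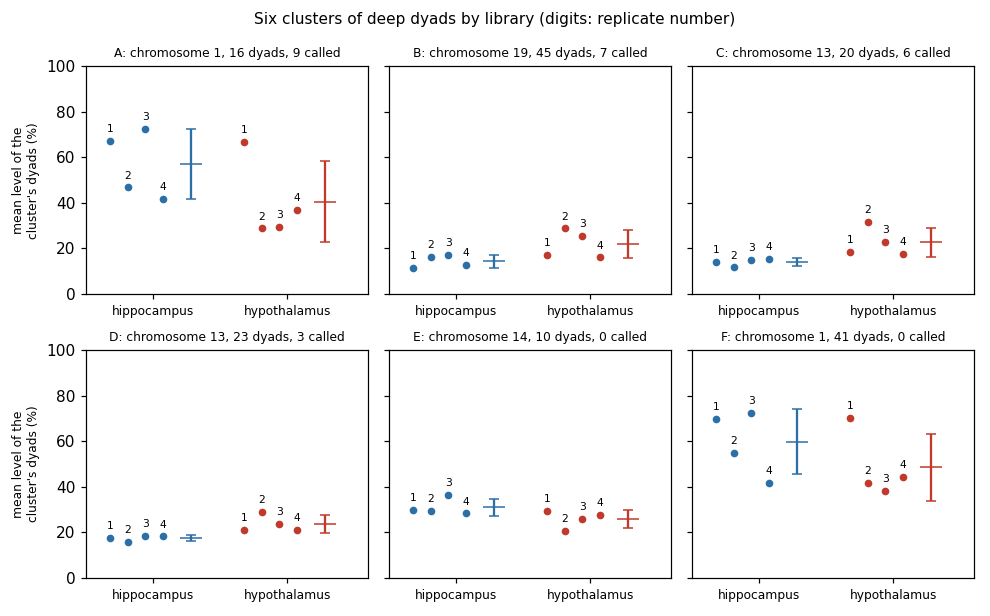
Mean methylation level (%) of the deep dyads of 6 clusters in each library (points, digits give the replicate number) with the tissue mean and SD (n = 4) beside them. A is chr1:13505331-13505430, B chr19:67048207-67048792, C chr13:95677901-95678490, D chr13:94075064-94075798, E chr14:46822747-46822848 and F chr1:13503472-13504146. In A and F hypothalamus 1 stands with hippocampus 1 and 3, and in B, C and D hypothalamus 2 is the highest library.

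Large spread between libraries was otherwise rare. Of the 418 clusters with 3 or more deep dyads, the median SD within a tissue was 1.63 points and 4 clusters reached 10 points, all of them in this stretch of chromosome 1. Over the tested deep dyads, hippocampus 1 and hypothalamus 1 differed by 20 points or more at 3 dyads, and hippocampus 4 and hypothalamus 4 at 2. Among the other pairs of a hippocampus and a hypothalamus library, those numbered 2 and those numbered 3 differed so at 49 and 86 dyads, within the range of 13 to 101 dyads over all 14 of these pairs.

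The 3 deep dyads with the largest spread within a tissue were not called in the main quasi-binomial test, which used all calls of the 8 libraries and no replicate block. A result with the replicate number as a block is given further on. At chr2:190332931-190332932 the levels were 66%, 59.4%, 40.6% and 41.1% in hippocampus, at 291, 276, 478 and 543 calls. In hypothalamus they were 77.8%, 26.8%, 73.9% and 31.9%, at 243, 780, 111 and 335 calls. In each tissue the deeper libraries had the lower levels there. At chr1:13500338-13500339 the levels were 65.8%, 54.3%, 62.5% and 40.3% in hippocampus and 61.9%, 8.04%, 35.0% and 41.7% in hypothalamus. The difference there was -19.1 points (adjusted p = 0.12, quasi-binomial test). Leaving out 1 library moved it from -9.54 (without hypothalamus 2) to -27.5 points (without hypothalamus 1), and it passed without hypothalamus 1 (adjusted p = 0.0017), without hippocampus 4 (adjusted p = 0.033) and with thinned calls (adjusted p = 0.0358). At chr4:136170725-136170726 too, the deepest libraries had the lowest levels and the shallowest the highest. The level was 31.7%, 35.0%, 26.9% and 20.3% at 665, 491, 689 and 689 calls in hippocampus. In hypothalamus it was 12.1% and 10.8% at 2515 and 981 calls (libraries 1 and 3) and 52.5% and 59.0% at 320 and 122 calls (libraries 2 and 4).

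Among the other clusters named for their calls or members, the spread differed. The 10 dyads of chr14:46822747-46822848, all at the maximum depth in at least 1 library, averaged 29.9%, 29.4%, 36.5% and 28.3% in hippocampus and 29.4%, 20.6%, 26.0% and 27.5% in hypothalamus, overlapping between the tissues. The array of short units at chr1:32415255-32415425 had 83.3% to 84.8% in all 8 libraries, although its 8 dyads ran from 4.53% to 97.3%. The cluster with most members, the 48 dyads of chr2:211291983-211292863, had 91.2% to 92.4% in 7 libraries and 76.6% in hypothalamus 3, which had the fewest calls per dyad there (214 against 539 to 1290).

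Whether deep dyads lie in repeated sequence was asked of their letters. For 1172 of the 2818 at least 30 of the 52 letters around the dyad were known. The same letters occurred at another shared dyad for 274 of these (23.4%), against 1.55% of the 267713 other dyads with as many known letters and 11% of 2281 dyads that were past the depth limit in 1 to 5 libraries. The description of these dyads as multicopy-like therefore held, by this measure, for a part of those that could be examined. Copies that differ only at letters unknown in both count as alike here. Copies whose unknown letters fall at different places count as different, so the counts depend on which cytosines were listed. Copies not among the shared dyads were not counted. Repeats of short units, with a period of 6 to 60 bases, were found at 4 deep dyads in 2 clusters and at 46 of the 758738 others. The search asked for 95% equal letters over at least 40 pairs of known letters. It found only 3 of the 8 dyads in the array at chr1:32415255-32415425, so these counts are lower values.

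The most widespread letters, the first sequence above, occurred at 169 shared dyads on 20 chromosomes, of which 13 on 8 chromosomes were deep. The 13 deep copies ranged from 43.0% to 85.3% with a median of 79.6%, and the other copies from 33.0% to 98.3% with a median of 81.6%. This difference between deep and other copies was not tested. The lowest deep copy, chr5:42651769-42651770, was at 38.4% to 47.1% in all 8 libraries, and the next, chr1:166559730-166559731, at 68.9% to 77.8%. No deep copy differed between the tissues by more than 3.21 points.

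The second sequence occurred at 39 dyads, of which 12 were deep, with levels of 75.1% to 93.8%. The third occurred at 41, of which 11 were deep, with levels of 61.8% to 93.2%. For these copies reads may be shared between places, so the differences between copies are uncertain.

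Ribosomal DNA arrays are a known multicopy sequence, and letters near the rRNA genes were found among the deep dyads. The clusters chr5:95166442-95166543 and chr19:5826886-5826985, with 6 deep dyads each, matched the RefSeq promoter of LOC134481045 at 59 of 59 letters compared. In the RefSeq assembly (GRCr8) this gene lies on chromosome 11 between Rn45sl2 and Rn45s, the 45S pre-ribosomal RNA gene. In the deposited files the 2 deep clusters are on chromosomes 5 and 19. The letters around their dyads chr5:95166501-95166502 and chr19:5826943-5826944 occurred at 4 shared dyads on 4 chromosomes, 2 of them deep. The copies that were not deep had levels of 17.4% to 21.3%. Reads may be shared between such places, so the 2 clusters may not be separate observations.

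Both clusters moved alike over the libraries. The first averaged 14.6%, 23.1%, 28.2% and 22.6% in hippocampus and 14.3%, 14.7%, 25% and 24.6% in hypothalamus. The second averaged 13%, 22.5%, 24.1% and 17.8% in hippocampus and 12.8%, 11.8%, 22.4% and 16.2% in hypothalamus. In both, hippocampus 1 and hypothalamus 1 and 2 were the 3 lowest libraries, and the tissues overlapped.

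Partial matches behaved otherwise. The clusters chr2:536390-536563, chr7:720592-720736, chr7:100070836-100070933 and chr7:100111417-100111927 matched the promoters of Rn45sl1 and Rn45sl2 equally, at 91.8% to 93.6% of letters. The first 2 of these averaged 75.5% to 90.2% over the libraries and the last pair 44.3% to 63.2%. The deep clusters were not compared with the rRNA genes themselves or with a repeat library here.

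Over all RefSeq promoters, 64 of the 555 deep dyads with at least 36 known letters had a match, 28 of them to 1 gene at 1 position of its promoter. Only 10 of these 28 had letters found at 1 place among the shared dyads, and the letters of the rest recurred elsewhere. Besides Fcgr2a, these included Mt1, singled out after its values were seen, which encodes a metallothionein, a small metal-binding protein. Its dyad, chr19:11278145-11278146, had 18.5% ± 3.25 (SD, n = 4) in hippocampus and 18.9% ± 4.04 in hypothalamus, overlapping, with an adjusted p of 0.993 in the quasi-binomial test.

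Calls outside CpGs were also examined at these places. They can stem from incomplete conversion or from non-CpG methylation, which brain tissue carries, and these cannot be told apart here. Within 100 bases of a deep dyad the level in CHH context (H standing for any base but G) was 0.742% (hippocampus 2) to 2.72% (hippocampus 4), against 0.903% to 3.01% at other listed CHH positions. It was lower near deep dyads in all 8 libraries, at 0.799 to 0.905 times the level elsewhere.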

How the data were processed

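The authors deposited, for each library, a list of cytosines with methylated calls and all calls (counts) and their ratio as a fraction, as the values show. Bowtie and build rn5 are named in the submitters' processing notes without a role; the caller, trimming and duplicate handling are not given there, and intervals from counts cover counting error only. Listed positions had 10 to 8022 calls. The deposited fraction was not used. Deposited calls of the listed strands of each CpG were added, and levels computed from the sums.

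The members, lists and the tests were chosen with earlier results of these data known. Dyads with a mean level of 5% to 95% entered a quasi-binomial logistic regression on tissue, with Pearson dispersion moderated by squeezeVar (limma 3.58.1, R 4.3.3), a floor of 1 and Benjamini-Hochberg adjustment over all 433557 tested dyads. The model was also run on simulated data, whose dispersion followed the median of real dyads of similar depth and level. Dispersion did not otherwise vary between simulated dyads, so that run cannot show how the test does where it varies, and nothing is drawn from it. Library levels were compared by exact permutation tests.

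Named dyads and clusters are the 5 clusters with the highest share of calls, the cluster with most members, the 5 largest called differences without overlap in each direction, the 3 members of largest spread and the members nearest the coverage limit; others were chosen after their values were seen. Letters were rebuilt from the deposited context columns; 180320234 entries were written and none went against another. Windows were compared with each other and, on both strands, with 33469 RefSeq promoters and 419 miRNA hairpins (GRCr8), used for names and neighbours only. A genome of the files' build was not used here. Alternatives covered the coverage cut, cluster gap, dispersion, thinning, replicate block and leaving out each library.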

Additional observations from a re-analysis of the deposited data

Results flagged for a closer look

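The mean level of the 48 deep dyads of chr2:211291983-211292863 in hypothalamus 3 was 76.6%, while the other 3 hypothalamus libraries had 91.2% to 92.1%. It was singled out because the gap to the nearest library, divided by the range of the group, was 0.939, above Dixon's critical value for 4 libraries. Of 42 groups of 4 examined this was the only such value, and chance gives about 1 in 20, or 2.1 here. Hypothalamus 3 was the shallowest library, with 214 calls per dyad in this cluster; the part of depth in the low level was not tested.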

How the results depend on the processing

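The 2818 deep dyads became 643 at a cut of 0.1% and 4465 at 1%, and their share of calls, 3.91% on average, became 2.32% and 4.59%, or 3.35% without dyads at the depth maximum. Weighted by calls, the difference in deep dyad level was -1.94 points in place of 0.109. The 37 called deep dyads became 0 with each dyad's own dispersion, 1 with limma on logit levels, 1 with a minimum of 20 points and 132 with none, 9 and 108 at the cuts of 0.1% and 1%, and 8 without hypothalamus 2 and 3. As shares, the minimum of 20 points gave 0.0448% of tested deep dyads against 4.69% of all tested dyads. The cuts of 0.1% and 1% gave 1.81% and 3.43% against 9.84%. Leaving out 1 library gave 16 to 86 called deep dyads. There were 23 without hippocampus 1 (1.03% against 8.28% of all tested dyads) and 78 without hippocampus 4 (3.47% against 8.78%). There were 86 without hypothalamus 1 (3.85% against 7.17%) and 16 without hypothalamus 2 (0.714% against 8.23%). The deep dyad level difference ran from -0.268 to 0.485 points. The CpG level difference ran from -0.118 (without hypothalamus 4) to 1.58 points with the deep dyads and from -0.0738 (without hypothalamus 4) to 1.71 without them. The dyad chr2:190332931 ran from -7.56 to 9.43 points, with -2.89, -2.73 and -6.26 among them, and chr4:136170725 from -3.35 to 12.7 points, with -1.18 among them. In these cases the cause was not tested beyond the smaller sets that the cuts leave. The cluster gap, another number of known letters and a wider CHH distance kept the values within 1.5 times.

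Libraries with the same number correlated in their deviations from the tissue means over all tested dyads with r of 0.186, 0.0485, 0.0614 and 0.172, so not every pair was over 0.1, although each library correlated best with its own number over all tested dyads, though not over deep dyads alone, a hint from the data and not the design. With the replicate number as a block, 73 deep dyads (3.27%) were called, against 53878 of all tested dyads (12.4%). Of the 73, 31 were higher in hypothalamus and 42 in hippocampus. Direction was not counted over all tested dyads under the block. The dyad chr1:13500338 passed under the block (adjusted p = 0.00181). The library level differences are the same by construction, at 0.511, 0.577 and 0.109 points, and the first 2 had an exact sign-flip p of 0.625 under the block. With 4 libraries per tissue the sign-flip test cannot give a p under 0.05, so nothing is concluded from it. The shallow libraries hypothalamus 3 and 4 limit the precision at single dyads, and depth above the maximum of 8022 calls per listed position was not measured.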

Other observations

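Chromosome X and the mitochondrial genome also held dyads past the autosomal limits in at least 6 libraries. On chromosome X they were 164 of 10616 shared dyads, in 48 clusters, with a median level of 84.1%. All 7 shared dyads of the mitochondrial genome, which is present in many copies per cell, were past the limits, at 2500 to 8034 calls. Their mean levels were 0.912% to 2.19%.

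The cluster of 5 deep dyads at chr9:120842623-120842719 had the most uneven depth of the 418 clusters with at least 3 members. It had 304, 303, 314 and 359 calls per dyad in hippocampus and 1877, 30.6, 557 and 34.8 in hypothalamus. Hypothalamus 1 and 3 were 32.4 and 25.3 times above their library medians, the opposite of their low depth at chr10:29781416-29781473. The level of the cluster was 84.0% to 90.2% in all 8 libraries.

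The 14 deep dyads of chr14:46861731-46861827 lay near the cluster at the depth maximum and, like it, had their lowest level in hypothalamus 2 (11.5%) and their highest in hippocampus 3 (31.9%). The 2 deep dyads of chr1:13564951-13564969, in the stretch of chromosome 1 with the largest spread, had 13.2% to 29.3%.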
